A study of Mus musculus with 18 samples.

Results

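The genes described here are 45 genes of cell division, read in colon epithelial cells (CECs) of WT and Mbd2-/- mice with and without colitis. The set was chosen by gene symbol and holds 23 replication genes, which copy DNA or supply its nucleotides, and 22 mitosis genes, which condense, attach and separate chromosomes. The array carried a probe for every one of the 45, among 31165 named genes in all. A gene was tested where 4 or more arrays read a probe above background (detection p-value under 0.05), which held for all 23 replication genes and for 19 of the 22 mitosis genes, 42 in all among 15757 tested genes. Ccnb2 (cyclin B2) and Bub1 (a spindle checkpoint kinase) were detected on 0 of 18 arrays and Kif20a (a kinesin of cytokinesis) on 1, so these 3 genes carry no test. RNA was read on Illumina MouseWG-6 BeadChips, and every level below is a background-corrected, quantile-normalized signal on the log2 scale, so that a difference of 1 is a 2-fold change. CECs had been sorted by flow cytometry as EpCAM-positive cells negative for CD45, CD3 and F4/80. The mice were adult C57BL/6 animals, matched for age and sex. Mbd2-/- mice lack Mbd2, a protein that binds methylated DNA and recruits repressors, in every cell and not only in epithelium. Mice had received 2% dextran sulphate sodium (DSS) in the drinking water, which injures the gut lining and causes colitis, or no DSS (naive). There were 4 groups of 4 samples each: DSS-treated WT (samples 1 to 4), DSS-treated Mbd2-/- (5 to 8), naive WT (9 to 12) and naive Mbd2-/- (13 to 16). Samples 4 and 5 are each the mean of 2 arrays, which the study may count as separate samples. A sample may pool several mice, and neither the number of mice in a sample nor the experiment it came from is given by sample, so the p-values measure the spread between these samples only.

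The colon epithelium renews itself within days from dividing cells at the base of its crypts, and cells stop dividing as they move up and mature. Before a cell divides, E2F factors switch on the replication genes: Cdc6 and Cdt1 load the Mcm2 to Mcm7 helicase onto DNA, cyclin E (Ccne1, Ccne2) helps to start synthesis, primase (Prim1) lays down primers, the clamp loader (Rfc3, Rfc4) places the Pcna clamp, and Fen1 and Lig1 finish the lagging strand. Ribonucleotide reductase (Rrm1, Rrm2), thymidylate synthase (Tyms) and thymidine kinase (Tk1) supply the building blocks. Mitosis genes are switched on later, through CCAAT boxes bound by NF-Y and through a short element called CHR (cell cycle genes homology region). Their products include the mitotic cyclins, the Aurora and Plk1 kinases, the spindle checkpoint (Mad2l1, Bub1b), kinesins (Kif11, Kif23) and Ube2c and Cdc20, which work with the anaphase-promoting complex to destroy mitotic proteins. In bulk RNA, fewer dividing cells and less of these transcripts per dividing cell cannot be told apart.

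E2F motifs were more frequent in the replication promoters and CHR motifs in the mitosis promoters, and 6 promoters are shown because the results below turn on their genes or because they show a motif. RefSeq promoters (mouse build GRCm38.p6, 250 bases before to 50 after the start of the gene) were at hand for 37 of the 45 genes. E2F motifs were searched as TTTGGCGC, TTTCCCGC and TTTCGCGC, the NF-Y motif as CCAAT and the CHR motif as TTTGAA and TTTAAA, each on both strands. An E2F motif stood in 7 of 19 replication promoters (36.8%), in 0 of 18 mitosis promoters, and in 1.91% of the promoters of 27025 gene symbols. CCAAT stood in 10 of 19 replication promoters (52.6%) and in 15 of 18 mitosis promoters (83.3%), against 37.9% of all. A CHR motif stood in 6 of 19 (31.6%) and in 15 of 18 (83.3%), against 27.8% of all. Both CCAAT and CHR were present in 14 of 18 mitosis promoters (77.8%), in 3 of 19 replication promoters (15.8%) and in 10.9% of all. In other genes of the same processes, described at the end by counts and named examples, E2F motifs stood in 25.6% of 39 replication and 13.5% of 52 mitosis promoters, and CHR motifs in 20.5% and 69.2%. These are matches of letters, not measured binding. The 125 bases before each start follow 5′ to 3′ on the strand of the gene, with motif matches on either strand in capitals, so that CCAAT also appears as ATTGG, and overlapping matches run together.
Mcm6 (chr1:128359706-128359830, minus strand; E2F and CCAAT matches): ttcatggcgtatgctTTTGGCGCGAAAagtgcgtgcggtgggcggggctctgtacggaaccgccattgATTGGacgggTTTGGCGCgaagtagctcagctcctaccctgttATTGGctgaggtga
Ccne1 (chr7:38107491-38107615, minus strand; a CHR match): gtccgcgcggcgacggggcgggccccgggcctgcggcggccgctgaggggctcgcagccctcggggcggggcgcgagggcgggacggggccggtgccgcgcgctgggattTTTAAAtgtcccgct
Prim1 (chr10:128015090-128015214, plus strand; a CCAAT match): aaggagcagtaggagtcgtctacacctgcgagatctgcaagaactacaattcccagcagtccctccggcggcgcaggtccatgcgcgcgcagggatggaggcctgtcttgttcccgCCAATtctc
Cenpa (chr5:30666761-30666885, plus strand; CCAAT and CHR matches): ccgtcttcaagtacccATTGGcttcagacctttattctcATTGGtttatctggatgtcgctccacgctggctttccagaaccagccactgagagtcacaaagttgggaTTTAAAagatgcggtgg
Ube2c (chr2:164769804-164769928, plus strand; CCAAT and CHR matches): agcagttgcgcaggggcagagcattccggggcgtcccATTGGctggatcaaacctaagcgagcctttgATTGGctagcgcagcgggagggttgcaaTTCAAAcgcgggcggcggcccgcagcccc
Aurka (chr2:172370571-172370695, minus strand; CCAAT matches): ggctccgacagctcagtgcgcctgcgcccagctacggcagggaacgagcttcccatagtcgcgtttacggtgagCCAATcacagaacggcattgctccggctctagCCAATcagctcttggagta

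Between 41.6% and 45.5% of all probes were detected per array. The single Mbd2 probe was detected on 0 of 18 arrays, so the genotype labels were taken as given. The epithelial genes Epcam, the target of the positive gate, Cdh1 and Krt8 were detected on all arrays, and the mean Epcam level was 7.45 in naive WT, 6.83 in naive Mbd2-/-, 6.91 in DSS-treated WT and 7.02 in DSS-treated Mbd2-/- CECs. Of the targets of the exclusion gates, Ptprc (CD45) and Cd3e were detected on 3 of 18 arrays each, but Adgre1 (F4/80) on 14, with mean levels of 4.90, 5.40, 6.41 and 6.53 in the same order. Markers of other cells moved with the conditions, counted below at an adjusted p under 0.05 (limma). Of all genes, 6.26% rose and 4.56% fell with DSS in WT mice, and 5.17% and 4.67% in Mbd2-/- mice. Between genotypes on DSS, 2.08% of all genes were higher and 3.52% lower in Mbd2-/- mice. An unadjusted p under 0.05 with DSS in Mbd2-/- mice held for 25.1% of all genes. Of 11 tested myeloid markers, 10 rose with DSS in WT and 9 in Mbd2-/- mice, and the mean level of 9 of them ran from 6.13 to 6.89 in naive WT, 7.73 to 8.66 in DSS-treated WT, 6.61 to 7.64 in naive Mbd2-/- and 8.31 to 8.44 in DSS-treated Mbd2-/- samples. Of 6 neutrophil markers 3 rose with DSS in WT and 4 in Mbd2-/- mice (median changes 1.70 and 1.81), and of 6 T and NK cell markers 3 rose in WT and 0 in Mbd2-/- mice (limma; 3 at an unadjusted p under 0.05). Of 10 fibroblast markers 6 rose with DSS in WT mice, with a mean level of 7.40 to 8.19 in naive and 8.16 to 8.81 in treated samples, and 0 in Mbd2-/- mice (limma; 3 at an unadjusted p under 0.05). In Mbd2-/- compared with WT mice on DSS, 6 of 8 endothelial markers were lower (mean of 7, 6.27 to 6.72 against 7.11 to 7.76), as were 5 of 7 smooth muscle markers (mean of 6, 8.41 to 9.47 against 9.88 to 10.45). Also lower were 2 of 10 fibroblast, 2 of 6 T and NK cell and 2 of 14 mature colonocyte markers, and 1 of 6 neutrophil markers was higher. In naive Mbd2-/- against naive WT mice 1 of 11 myeloid, 1 of 11 stem and crypt base and 2 of 8 goblet cell markers were higher (2.4% of all genes). Lower there were 1 of 8 goblet cell, 1 of 8 endothelial and 1 of 9 enteroendocrine markers (3.03% of all genes). Of 14 mature colonocyte markers 3 were lower and 1 higher with DSS in Mbd2-/- mice (median change -0.41; mean level 10.39 to 11.00 in naive and 9.73 to 10.61 in treated samples), and 1 was lower and 1 higher in WT mice. Dividing cells of any of these kinds express replication and mitosis genes, and the part of such cells in the results below was not tested.

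The division genes spread widely between samples of the same group. Averaged over the 20 replication genes detected on every array, the level was 8.98 ± 0.16 (SD, n = 4) in naive WT, 9.11 ± 0.25 in DSS-treated WT, 9.08 ± 0.11 in naive Mbd2-/- and 9.16 ± 0.37 in DSS-treated Mbd2-/- CECs. The mean of the 18 mitosis genes detected on every array was 9.18 ± 0.11, 9.45 ± 0.24, 9.26 ± 0.30 and 9.48 ± 0.30 in the same groups. The genes of each list moved together from sample to sample. The SD of the list mean within groups was 0.24 for the replication and 0.25 for the mitosis genes, nearly as large as the median SD of a single gene of those lists (0.29 and 0.27), whereas over 11559 genes the SD of the mean was 0.014 and the median SD of a gene was 0.21. Quantile normalization holds the mean over all genes nearly constant by construction.

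**Figure D1:**
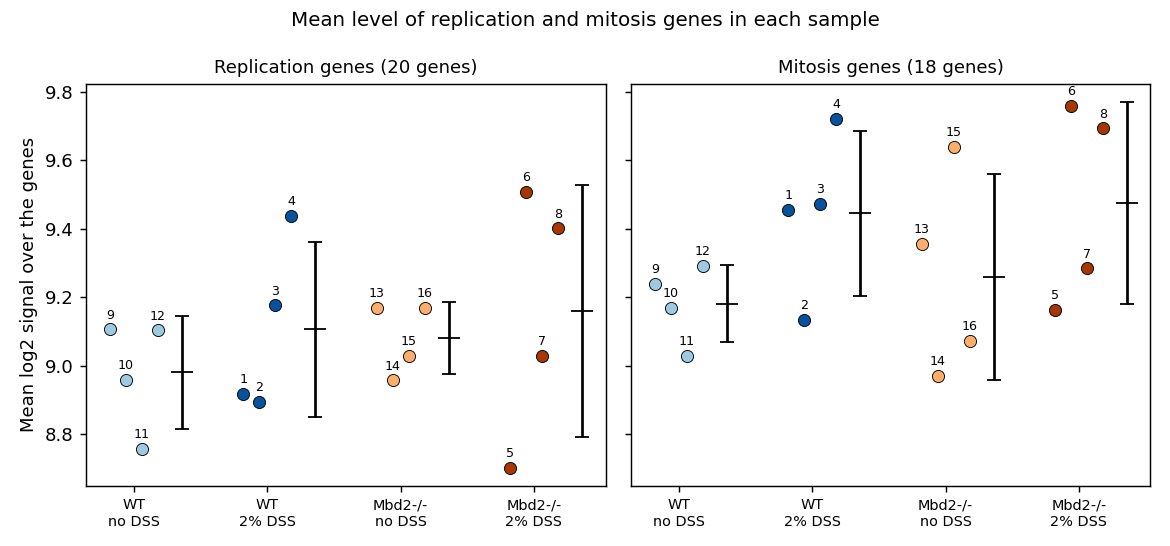
Mean log2 signal of the 20 replication genes (left) and the 18 mitosis genes (right) detected on every array, 1 point per sample labelled with its replicate number; bars give the group mean and SD (n = 4). In DSS-treated Mbd2-/- mice sample 5 lies at 8.70 and sample 6 at 9.51 for replication, a gap wider than that between any group means.

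Single samples stood at the same end of their group for most genes. In DSS-treated Mbd2-/- CECs, sample 5 was the lowest for 19 of 20 replication genes and 14 of 18 mitosis genes, and sample 6 the highest for 17 and 11. Among all genes detected on every array, sample 5 was the lowest for 28.6% and sample 6 the highest for 27.2%. In DSS-treated WT CECs, sample 4 was the highest for 15 of 20 replication and 16 of 18 mitosis genes (27.4% of all genes), and sample 2 was the lowest for 11 and 17 (23.7%). In naive WT CECs, sample 11 was the lowest for 16 and 12 (27.9%). In naive Mbd2-/- CECs, sample 15 was the highest for 16 of 18 mitosis genes but for 3 of 20 replication genes (30.5% of all genes). It was the lowest for 8 of 20 replication genes (40%), near its share of all genes (38%), and for 0 of the mitosis genes. Its mitosis mean was 9.64 and its replication mean 9.03, a difference of 0.61, against 0.19, 0.013 and -0.095 in samples 13, 14 and 16. In the 8 DSS-treated samples the mitosis mean exceeded the replication mean by 0.24 to 0.54, and in naive WT samples by 0.13 to 0.27.

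**Figure D2:**
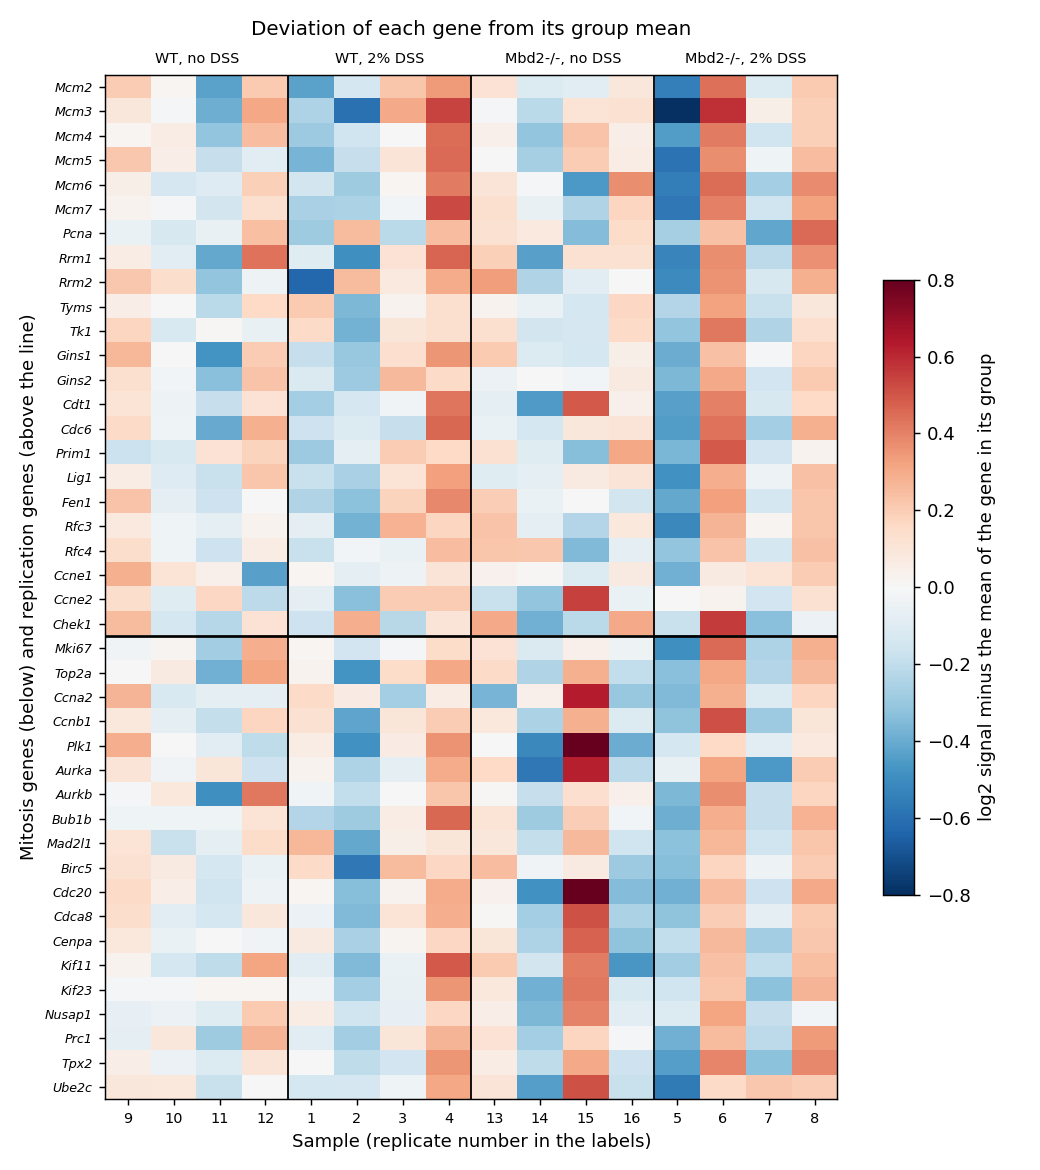
Each tested gene (rows, replication above the line and mitosis below) in each sample (columns), as its log2 signal minus the mean of that gene in its group; red is above and blue below the group mean, with 3 of 672 values past the ends of the colour scale at 0.8. Sample 5 is blue and sample 6 red in nearly all rows, and sample 15 is red for most mitosis genes.

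Epithelial marker levels varied beside these means. The mean of 8 stem and crypt base genes was 7.70 in sample 5 and 8.41 in sample 6, the lowest and highest of all 16 samples. In DSS-treated WT mice it was 7.72 in sample 2 and 8.18 in sample 4. Among naive WT samples the order was another: sample 11, lowest in both division means, had the highest stem mean (8.10), and sample 9, whose replication mean was the highest beside that of sample 12 (9.11 and 9.10), had the lowest (7.97). The mean of 14 mature colonocyte genes was 10.12 in sample 4, the lowest of the DSS-treated WT samples, and 9.73 in sample 8, the lowest of the DSS-treated Mbd2-/- samples. Samples 6 and 8, with the highest replication means of their group, had colonocyte means of 10.08 and 9.73, and samples 5 and 7 had 10.30 and 10.61. In naive Mbd2-/- mice samples 13 and 16 had the same replication mean (9.17) with colonocyte means of 10.39 and 11.00, the latter the highest of all 16 samples. Arrays 4R and 5R carry the numbers of arrays 4 and 5 and were averaged with them, although it is not settled that they are repeats, and lay close to them: the division genes differed by a mean of -0.0038 between arrays 4 and 4R and of 0.017 between arrays 5 and 5R. Counting all 18 arrays as separate samples passed the same genes as reported below, with Fen1 in addition for DSS in WT mice and Kif23 in addition for DSS averaged over both genotypes.

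With DSS in WT mice, the centromere gene Cenpa and the cyclin E gene Ccne1 rose and the primase gene Prim1 fell, and the other 39 tested genes did not pass the test. At an adjusted p under 0.05 (limma, DSS-treated against naive, adjusted over all tested probes) 2 of 42 genes were higher, against 6.26% of all tested genes, and 1 was lower, against 4.56%. No gene passed the thresholds of the study's methods, an adjusted p under 0.01 with an absolute log2 fold change of at least 1, which 1.91% of all genes passed. At an unadjusted p under 0.05 there were 8 of 42 genes, against 26.6% of all genes. Of the 19 mitosis genes 18 had a positive log2 fold change, with a median of 0.24 (range -0.08 to 0.68), while 14 of 23 replication genes were positive with a median of 0.077 (range -0.63 to 0.60). The median over all genes was 0.0074, and 51.1% were positive. Leaving out 1 sample moved the replication median to between -0.057 (without sample 4) and 0.19 (without sample 2), so that its sign rested on sample 4, and the mitosis median to between 0.18 and 0.37 (without the same samples). The groups did not overlap for 5 of 42 genes, against 17.7% of all genes. The genes of a list vary together, as shown above, so the count of positive genes is not a count of independent ones.

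**Figure D3:**
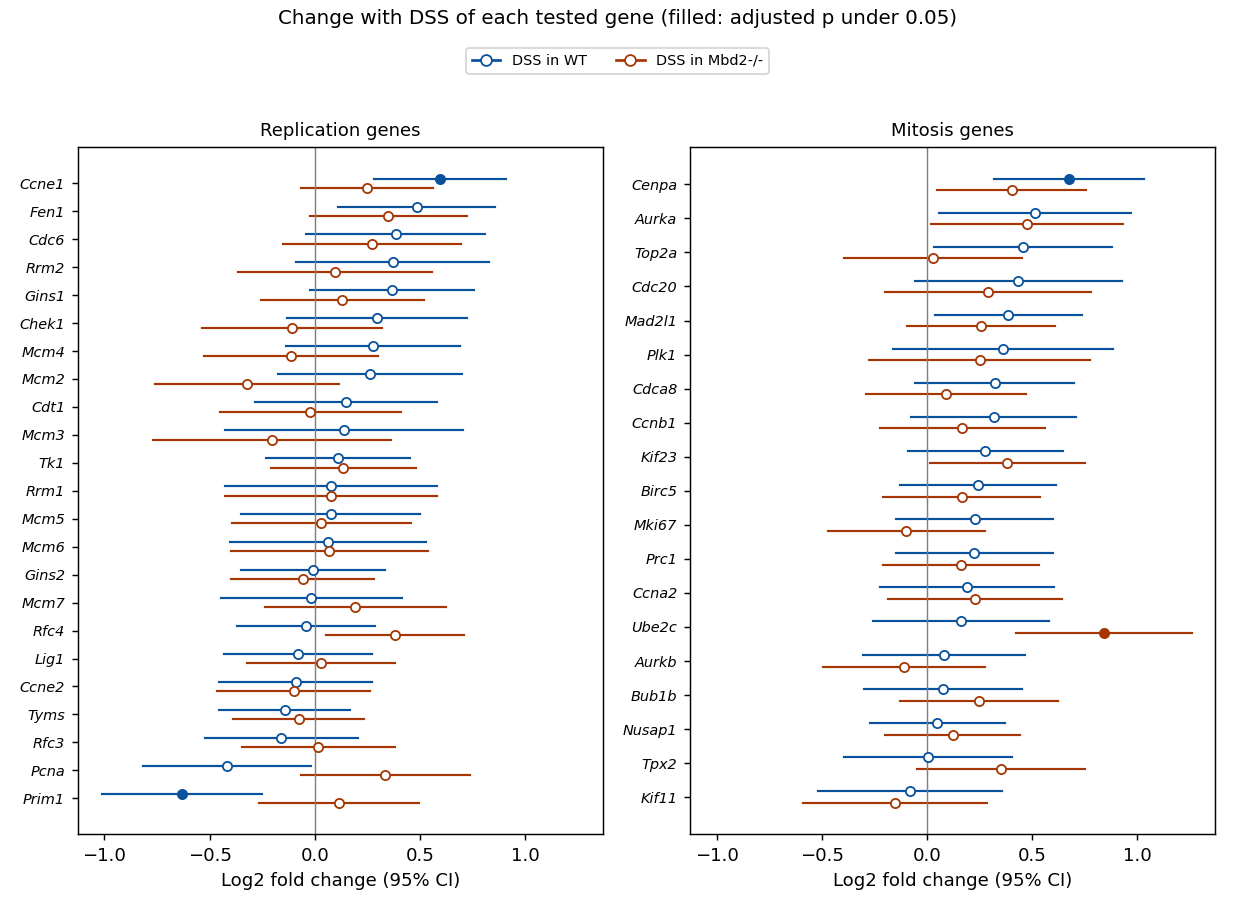
Log2 fold change of each tested replication gene (left) and mitosis gene (right) with DSS, with its 95% confidence interval, in WT (blue) and Mbd2-/- (brown) mice; filled points pass an adjusted p under 0.05. Cenpa lies at 0.68 in WT mice and Ube2c at 0.84 in Mbd2-/- mice, and most mitosis genes lie right of 0.

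Among the mitosis genes, Cenpa encodes the histone H3 variant that marks centromeres. Its level was 11.00, 10.86, 10.91 and 10.89 in naive WT samples 9 to 12 and 11.66, 11.33, 11.61 and 11.76 in DSS-treated WT samples 1 to 4. Every DSS-treated sample lay above every naive sample, and the change was 0.68 (95% CI 0.32 to 1.03, adjusted p = 0.018), a 1.6-fold rise. The call rested on sample 4, since without it the adjusted p was 0.06. The size of the change did not, and was 0.62 or more whichever sample was left out. Aurka, the kinase of spindle poles, read 8.43, 8.30, 8.43 and 8.16 in naive and 8.88, 8.60, 8.77 and 9.14 in DSS-treated WT samples. These groups did not overlap either, yet the difference of 0.51 (95% CI 0.06 to 0.97, adjusted p = 0.137) did not pass. It passed with scaling to a common median (adjusted p = 0.0348) and with only the WT groups in the fit (adjusted p = 0.0466). Mad2l1, the spindle checkpoint inhibitor of Cdc20, read 9.32, 9.03, 9.13 and 9.36 in naive and 9.86, 9.19, 9.64 and 9.70 in DSS-treated WT samples, where sample 2 lay among the naive values (difference 0.39 (95% CI 0.04 to 0.74, adjusted p = 0.146)). Top2a, the topoisomerase that untangles chromosomes, read 9.63, 9.70, 9.24 and 9.94 in naive and 10.11, 9.61, 10.23 and 10.39 in DSS-treated WT samples, again with sample 2 inside the naive range (difference 0.46 (95% CI 0.03 to 0.88, adjusted p = 0.155)). Mad2l1 and Top2a passed with scaling to a common median, at adjusted p values of 0.0255 and 0.0281, where 5 of 19 mitosis genes passed in place of 1 and 16.7% of all genes were higher in place of 6.26%. Mki67, the proliferation antigen Ki-67, differed by 0.23 (95% CI -0.15 to 0.60) at its brighter probe and by -0.18 (95% CI -0.62 to 0.27) at a second probe detected on all 18 arrays, so it had no settled direction, and the other mitosis genes by -0.08 (Kif11) to 0.44 (Cdc20). Further Cdc20 probes, each detected on all 18 arrays, gave 0.46, 0.09 and -0.13, so the change of Cdc20 was not settled either.

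**Figure D4:**
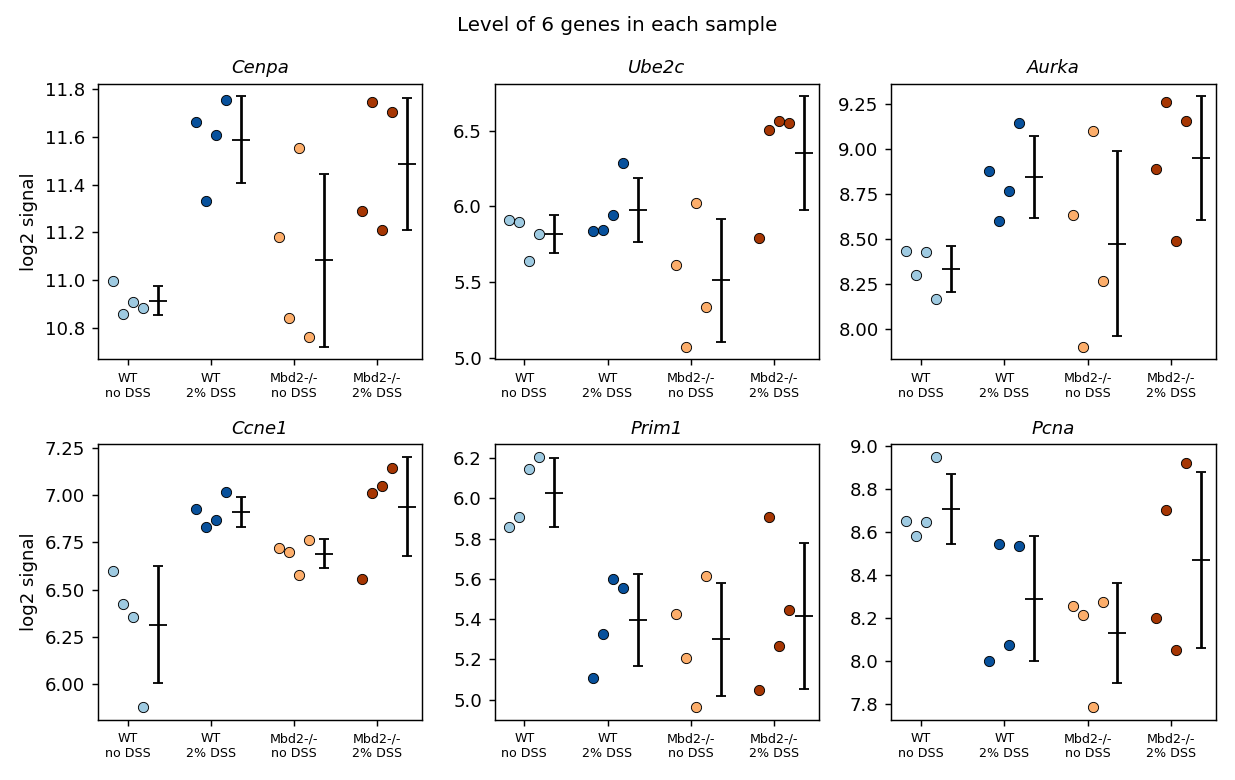
Log2 signal of Cenpa, Ube2c, Aurka, Ccne1, Prim1 and Pcna in each sample, with the group mean and SD (n = 4). The DSS-treated WT samples lie above the naive WT samples for Cenpa, Aurka and Ccne1 and below them for Prim1 and Pcna.

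Among the replication genes, Ccne1 read 6.60, 6.42, 6.36 and 5.88 in naive and 6.93, 6.83, 6.87 and 7.02 in DSS-treated WT samples. All 4 DSS-treated samples were above the naive ones, of which sample 12 was the lowest, and the change was 0.60 (95% CI 0.28 to 0.91, adjusted p = 0.0182), a 1.51-fold rise. Without sample 12 its adjusted p was 0.0548 and without sample 4 it was 0.0576. Without background correction the change was 0.29 (adjusted p = 0.0217). Prim1, the subunit of primase that makes the primers, went the other way, from 5.86, 5.91, 6.15 and 6.21 in naive to 5.11, 5.33, 5.60 and 5.56 in DSS-treated WT samples. The groups did not overlap, and the change was -0.63 (95% CI -1.01 to -0.25, adjusted p = 0.0351). The signal of Prim1 was near background (detected on 16 of 18 arrays), and leaving out 1, 2, 4, 10, 11 or 12 each raised its adjusted p to between 0.0518 and 0.0931. Without background correction the change was -0.22 (adjusted p = 0.0427), and the adjusted p was 0.0872 with scaling to a common median and 0.062 with no filter on dim probes. Pcna, the sliding clamp, read 8.65, 8.58, 8.65 and 8.95 in naive and 8.00, 8.54, 8.08 and 8.54 in DSS-treated WT samples, all of the latter below the former, with a difference of -0.42 (95% CI -0.82 to -0.02, adjusted p = 0.172) that did not pass. Fen1, the nuclease that trims lagging strand flaps, read 9.61, 9.31, 9.22 and 9.38 in naive and 9.62, 9.54, 10.04 and 10.25 in DSS-treated WT samples, where sample 2 fell below naive sample 9 (difference 0.48 (95% CI 0.11 to 0.86, adjusted p = 0.0909)). Fen1 passed with scaling to a common median (adjusted p = 0.0171), with array weights (adjusted p = 0.0368) and with all 18 arrays as separate samples (adjusted p = 0.0377). The 6 Mcm helicase genes differed by -0.02 (Mcm7) to 0.28 (Mcm4), and the nucleotide supply genes by -0.14 (Tyms), 0.08 (Rrm1), 0.11 (Tk1) and 0.37 (Rrm2). In 40 of the 42 genes the whole 95% interval lay within a log2 change of 1 in either direction.

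With DSS in Mbd2-/- mice, Ube2c, the ubiquitin-conjugating enzyme of the anaphase-promoting complex, rose and the other 41 genes did not pass. At an adjusted p under 0.05 (limma) 1 of 42 genes was higher, against 5.17% of all genes, and 0 were lower, against 4.67%. By the study's thresholds 0 were called, against 1.92% of all genes, and 5 of 42 had an unadjusted p under 0.05, against 25.1%. Of the 19 mitosis genes 16 were positive, with a median of 0.23 (range -0.15 to 0.84), and of the 23 replication genes 15 were positive, with a median of 0.07 (range -0.32 to 0.38). The median over all genes was -0.01, and 48.4% were positive. The replication median was -0.065 without sample 6, -0.048 without sample 8, 0.0042 without sample 14 and 0.24 without sample 5, and the mitosis median stayed between 0.13 and 0.31 when 1 sample was left out. The groups overlapped for all 42 genes, while they did not for 16.2% of all genes.

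Ube2c read 5.62, 5.07, 6.02 and 5.34 in naive Mbd2-/- samples 13 to 16 and 5.79, 6.50, 6.57 and 6.55 in DSS-treated Mbd2-/- samples 5 to 8. Samples 6, 7 and 8 were above all naive samples, whereas sample 5 lay below naive sample 15, so the groups overlapped. The change was 0.84 (95% CI 0.42 to 1.26, adjusted p = 0.0138), a 1.79-fold rise, and its adjusted p was 0.0516 without sample 8 and 0.0501 without sample 14. Its level was low, and without background correction the change was 0.32 (adjusted p = 0.0208). With only the naive and DSS-treated Mbd2-/- groups in the fit its adjusted p was 0.0518. Cenpa read 11.18, 10.84, 11.55 and 10.76 in naive and 11.29, 11.75, 11.21 and 11.70 in DSS-treated Mbd2-/- samples, where naive sample 15 reached the DSS-treated values and the difference was 0.40 (95% CI 0.05 to 0.76, adjusted p = 0.147). Aurka read 8.63, 7.90, 9.10 and 8.26 in naive and 8.89, 9.26, 8.49 and 9.15 in DSS-treated Mbd2-/- samples, with sample 15 again as high as the treated ones (difference 0.48 (95% CI 0.02 to 0.93, adjusted p = 0.186)). Without sample 15, the sample with the high mitosis mean, Cenpa and Aurka passed beside Ube2c, at adjusted p values of 0.0358 and 0.0438. Kif23, a kinesin of the central spindle, read 10.53, 10.05, 10.86 and 10.32 in naive and 10.66, 11.04, 10.49 and 11.09 in DSS-treated Mbd2-/- samples, a difference of 0.38 (95% CI 0.01 to 0.75, adjusted p = 0.189) between overlapping groups. With array weights Cenpa, Aurka and Kif23 passed, with changes of 0.59, 0.74 and 0.60 and adjusted p values of 0.0104, 0.0144 and 0.0178, among 6 of 19 mitosis genes that rose, against 7.98% of all genes with these weights. Mki67 differed by -0.10 (95% CI -0.47 to 0.27) and Top2a by 0.03 (95% CI -0.39 to 0.45), both around 0.

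None of the replication genes passed in this comparison. Rfc4, a clamp loader subunit, read 8.95, 8.94, 8.37 and 8.65 in naive and 8.79, 9.33, 8.97 and 9.34 in DSS-treated Mbd2-/- samples, a difference of 0.38 (95% CI 0.05 to 0.71, adjusted p = 0.139). Fen1 read 9.86, 9.61, 9.66 and 9.52 in naive and 9.60, 10.34, 9.87 and 10.23 in DSS-treated Mbd2-/- samples, with sample 5 as low as the naive samples (difference 0.35 (95% CI -0.02 to 0.72, adjusted p = 0.236)). Pcna read 8.25, 8.21, 7.79 and 8.28 and 8.20, 8.70, 8.05 and 8.92, and the difference of 0.34 (95% CI -0.07 to 0.74, adjusted p = 0.291) was positive where that in WT mice was negative. Ccne1 read 6.72, 6.70, 6.58 and 6.76 and 6.55, 7.01, 7.05 and 7.14, where sample 5 was lower than every naive sample (difference 0.25 (95% CI -0.06 to 0.56, adjusted p = 0.319)). The Mcm genes differed by -0.32 (Mcm2) to 0.19 (Mcm7). A second, dimmer Mcm7 probe, detected on all 18 arrays, passed with a change of 1.02 (95% CI 0.38 to 1.67, adjusted p = 0.0446), while the brighter probe gave 0.19 (95% CI -0.24 to 0.62), so Mcm7 had no settled change.

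Whether the DSS effect differed between the genotypes was tested as an interaction, and 0 of 42 genes passed an adjusted p under 0.05 (limma), against 0% of all genes. At an unadjusted p under 0.05 there were 3 of 42, against 10.6% of all genes. These were Prim1, Pcna and Ube2c, with interactions of 0.75 (95% CI 0.21 to 1.29, adjusted p = 0.293), 0.75 (95% CI 0.19 to 1.32, adjusted p = 0.315) and 0.68 (95% CI 0.08 to 1.27, adjusted p = 0.392). The median interaction was -0.043 for the replication and -0.078 for the mitosis genes, and -0.023 over all genes. These signs turned too, with a range of -0.15 (without sample 6) to 0.069 (without sample 5) and of -0.25 (without sample 2) to 0.065 (without sample 15). A difference of the DSS effect between the genotypes was therefore not detected for any of these genes, with intervals that reached from -1.20 to 1.32.

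With both genotypes averaged, a comparison added after the data had been seen, 8 DSS-treated samples were set against 8 naive ones. Cenpa rose by 0.54 (95% CI 0.29 to 0.79, adjusted p = 0.00437), Ube2c by 0.50 (95% CI 0.21 to 0.80, adjusted p = 0.0183), Aurka by 0.49 (95% CI 0.17 to 0.82, adjusted p = 0.0299), Ccne1 by 0.42 (95% CI 0.20 to 0.65, adjusted p = 0.0093) and Fen1 by 0.42 (95% CI 0.15 to 0.68, adjusted p = 0.0264). These 5 of 42 genes were 3 mitosis and 2 replication genes, against 11.4% of all genes that were higher and passed, and 0 of 42 were lower, against 9.93%. The average of Ube2c hides unlike changes, with mean levels of 5.82 in naive and 5.98 in DSS-treated WT samples, against 5.51 and 6.35 in Mbd2-/- samples. The count of passing genes depended on the setting. The mitosis count was 12 with scaling to a common median, where 27% of all genes were higher and passed, 10 with array weights (13.9% of all genes) and 5 with the variance trend (11.8%) or the mean over probes. It was 7 without sample 15 (11% of all genes), 6 without sample 2 (10.7%), and 2 without sample 4, 6, 8, 12, 14 or 16 or with no filter, where Aurka no longer passed. The replication count was 5 with that scaling, and 1 without sample 3, 4, 6, 8, 11 or 16, where Fen1 no longer passed. Of the mitosis genes 17 of 19 were positive, with a median of 0.21, and of the replication genes 14 of 23, with a median of 0.066 (all genes: 48.8% and a median of -0.0064). The mitosis median was above that of all genes in each DSS comparison, also when the arrays were scaled to a common median in place of quantiles. That scaling moved the median of all genes with DSS to 0.18 in WT and 0.13 in Mbd2-/- mice, and relative to it the mitosis median was 0.33 and 0.23, and the replication median 0.17 and 0.08.

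Between genotypes on DSS, none of the 42 genes passed the test. At an adjusted p under 0.05 (limma, Mbd2-/- against WT) 0 of 42 were higher, against 2.08% of all genes, and 0 lower, against 3.52%. By the study's thresholds 0 were called, against 0.888%, and 1 of 42 had an unadjusted p under 0.05, against 21.5%. All 42 intervals lay within a log2 change of 1, reaching from -0.76 to 0.79. The median difference was 0.039 for the replication and -0.041 for the mitosis genes, and -0.019 over all genes. Neither sign was stable: leaving out 1 sample moved the replication median to between -0.063 (without sample 6) and 0.18 (without sample 5) and the mitosis median to between -0.13 (without sample 6) and 0.11 (without sample 4). The gene at an unadjusted p under 0.05 was Ccne2, the second cyclin E gene, which read 5.01, 4.75, 5.29 and 5.28 in WT and 5.51, 5.53, 5.35 and 5.62 in Mbd2-/- samples on DSS. The groups did not overlap, which held for 1 of 42 genes against 14.9% of all genes, the levels were near background, and the difference was 0.42 (95% CI 0.06 to 0.78, adjusted p = 0.16). Without background correction the difference was 0.12 (adjusted p = 0.271).

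Other genes with the largest statistics in this comparison overlapped between the groups. Rfc3, another clamp loader subunit, read 8.14, 7.84, 8.49 and 8.39 in WT and 7.99, 8.78, 8.53 and 8.73 in Mbd2-/- samples on DSS, a difference of 0.30 (95% CI -0.07 to 0.66). Chek1, the kinase of the replication checkpoint, read 5.30, 5.76, 5.24 and 5.57 and 4.96, 5.69, 4.80 and 5.09, a difference of -0.33 (95% CI -0.76 to 0.10). Rrm2, the regulated subunit of ribonucleotide reductase, read 6.73, 7.61, 7.43 and 7.65 and 7.05, 7.92, 7.43 and 7.84, a difference of 0.21 (95% CI -0.26 to 0.67) in which WT sample 1 was the lowest. Of the mitosis genes, Ube2c read 5.84, 5.84, 5.95 and 6.29 in WT samples and the Mbd2-/- values given above, a difference of 0.37 (95% CI -0.04 to 0.79). Aurkb, the kinase of the chromosomal passenger complex, read 9.13, 8.96, 9.16 and 9.38 and 8.53, 9.26, 8.71 and 9.07, a difference of -0.27 (95% CI -0.65 to 0.12). Its partner Birc5 (survivin) read 10.35, 9.62, 10.45 and 10.36 and 10.06, 10.57, 10.36 and 10.60, a difference of 0.20 (95% CI -0.17 to 0.57) in which WT sample 2 was the lowest. Tpx2, the spindle protein that activates Aurka, read 7.42, 7.21, 7.26 and 7.77 and 7.20, 8.03, 7.31 and 8.02, a difference of 0.22 (95% CI -0.17 to 0.62).

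Between genotypes without DSS, Prim1 was lower in Mbd2-/- CECs and the other 41 genes did not pass. At an adjusted p under 0.05 (limma) 0 of 42 were higher, against 2.4% of all genes, and 1 was lower, against 3.03%. By the study's thresholds 0 were called, against 0.723%, and 7 of 42 had an unadjusted p under 0.05, against 23%, all of them replication genes. The median difference was 0.12 for the replication and 0.09 for the mitosis genes, and -0.01 over all genes. Leaving out 1 sample kept the replication median between 0.079 and 0.21, while the mitosis median ran from -0.065 without sample 15 to 0.15 without sample 14, so that its sign rested on sample 15. Prim1 read 5.42, 5.21, 4.96 and 5.61 in naive Mbd2-/- samples, all below the naive WT values of 5.86, 5.91, 6.15 and 6.21, with a difference of -0.73 (95% CI -1.11 to -0.35, adjusted p = 0.0293). This comparison and that of DSS in WT mice share the naive WT samples, in which Prim1 was high, so they are not separate evidence. Without 10, 11, 12, 13, 14 or 15 the adjusted p rose to between 0.0509 and 0.0798. Without background correction the difference was -0.25 (adjusted p = 0.0392). The adjusted p was 0.0525 with scaling to a common median, 0.0501 with no filter and 0.0537 with only the naive groups in the fit.

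**Figure D5:**
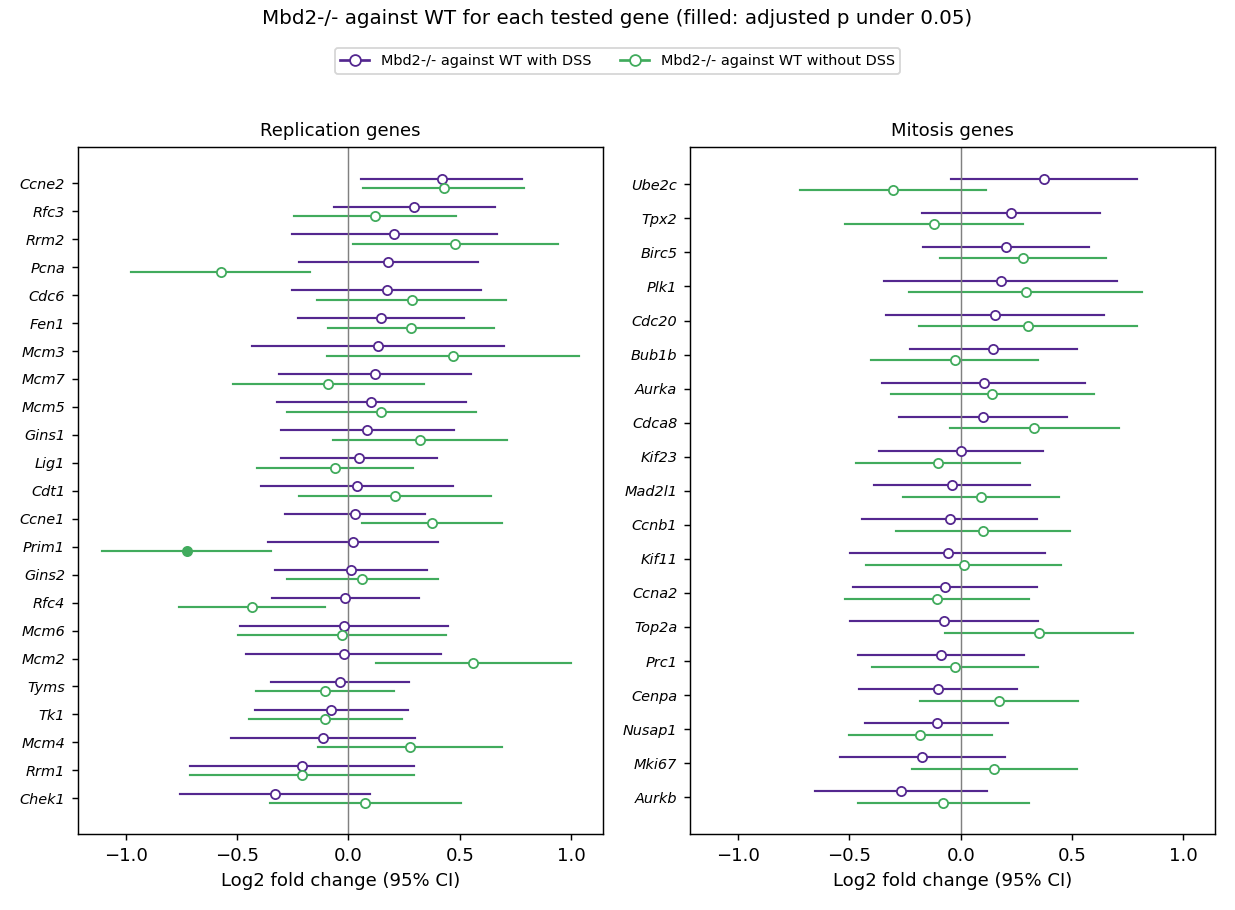
Log2 difference between Mbd2-/- and WT mice for each tested replication gene (left) and mitosis gene (right), with its 95% confidence interval, on DSS (purple) and without DSS (green); filled points pass an adjusted p under 0.05. Prim1 without DSS, at -0.73, is the only filled point.

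Pcna, Rfc4, Mcm2 and Rrm2 also separated the naive groups without passing the test, which with Prim1 made 5 of 42 genes, against 12.4% of all genes. Pcna read 8.25, 8.21, 7.79 and 8.28 in Mbd2-/- samples, all below the WT range given above, a difference of -0.57 (95% CI -0.98 to -0.17, adjusted p = 0.0865). Rfc4 read 9.30, 9.13, 8.99 and 9.22 in naive WT samples, all above the Mbd2-/- values, a difference of -0.43 (95% CI -0.76 to -0.11, adjusted p = 0.11). Mcm2, a helicase subunit, went the other way: it read 9.27, 9.08, 8.64 and 9.27 in naive WT and 9.74, 9.52, 9.53 and 9.72 in naive Mbd2-/- samples, all of the latter above the former, a difference of 0.56 (95% CI 0.12 to 1.00, adjusted p = 0.121). Rrm2 read at most 7.20 in naive WT and at least 7.22 in naive Mbd2-/- samples, a difference of 0.48 (95% CI 0.02 to 0.94, adjusted p = 0.202). The replication genes thus held differences of both signs. Among the mitosis genes, Cdca8, a chromosomal passenger subunit, read 9.77, 9.54, 9.49 and 9.72 in naive WT and 9.97, 9.69, 10.47 and 9.71 in naive Mbd2-/- samples, where sample 15 was the highest (difference 0.33 (95% CI -0.05 to 0.71)). Birc5 read 10.08, 10.03, 9.81 and 9.90 and 10.48, 10.21, 10.31 and 9.94 (difference 0.28 (95% CI -0.09 to 0.65)), Top2a differed by 0.35 (95% CI -0.07 to 0.78) and Ube2c by -0.30 (95% CI -0.72 to 0.12), all between overlapping groups. Top2a read 10.14, 9.74, 10.27 and 9.78 in naive Mbd2-/- samples, and Ube2c 5.91, 5.90, 5.64 and 5.82 in naive WT samples. Their values in the other naive group are given above.

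The choice of probe mattered for some genes. Of the 42 tested genes 22 had more than 1 tested probe, and the 31 further probes had the sign of the brightest probe in 22 cases for DSS in WT mice, 21 for DSS in Mbd2-/- mice, 21 for genotype on DSS and 20 for genotype without DSS. The Mcm7 probe above was the only one on the other side of the threshold in these 4 comparisons.

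In further genes of the same processes the shares that passed were near or below those of all genes. Of 42 other replication genes tested, Dbf4, the activating subunit of the kinase that fires origins, rose by 0.53 (95% CI 0.21 to 0.85) and Pold3, a subunit of DNA polymerase delta, by 0.37 (95% CI 0.15 to 0.58) with DSS in WT mice, with 0 lower (2 of 42 higher, against 6.26% of all genes). With DSS in Mbd2-/- mice 0 passed in either direction (limma), against 5.17% of all genes higher and 4.67% lower. At an unadjusted p under 0.05 there were 4 of 42, against 25.1%. Of 53 other mitosis genes, Cdkn3, a phosphatase that acts on Cdk2, rose with DSS by 0.68 (95% CI 0.33 to 1.03) in WT and 0.63 (95% CI 0.28 to 0.98) in Mbd2-/- mice. The lamin Lmnb1 rose by 0.96 (95% CI 0.40 to 1.51) and the centromere gene Cenpm by 0.51 (95% CI 0.19 to 0.82) in Mbd2-/- mice on DSS. These were 1 of 53 higher in WT, against 6.26% of all genes, and 3 of 53 in Mbd2-/- mice, against 5.17%. Between genotypes, Spc24, a kinetochore subunit, was lower in naive Mbd2-/- than in naive WT mice (difference -0.68 (95% CI -1.08 to -0.28)). This was 1 of 53 lower, against 3.03% of all genes. On DSS 0 genes of both lists passed (limma), against 2.08% of all genes higher and 3.52% lower. At an unadjusted p under 0.05 there were 1 of 42 and 2 of 53, against 21.5%. The medians of the other mitosis genes with DSS were 0.19 in WT and 0.11 in Mbd2-/- mice, and those of the other replication genes 0.099 and 0.046. With both genotypes averaged, 7 of 53 other mitosis and 3 of 42 other replication genes were higher, against 11.4% of all genes, and 0 were lower, against 9.93%.

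Of 22 regulators of the cell cycle, Ccnd1 (cyclin D1), which drives cells out of rest, rose with DSS in both genotypes. It read 11.55, 11.44, 11.37 and 11.04 in naive and 11.95, 11.55, 12.05 and 12.29 in DSS-treated WT samples, which overlapped, and 12.06, 11.68, 11.86 and 11.29 in naive and 12.12, 12.32, 12.49 and 12.43 in DSS-treated Mbd2-/- samples, which did not. The changes were 0.61 (95% CI 0.24 to 0.99, adjusted p = 0.0372) and 0.62 (95% CI 0.25 to 0.99, adjusted p = 0.0367). E2f4, an E2F factor best known as a repressor in resting cells, rose by 0.55 (95% CI 0.22 to 0.87) and 0.76 (95% CI 0.43 to 1.09), and the repressor E2f6 by 0.40 (95% CI 0.16 to 0.64) in WT mice. E2f3 was lower in naive Mbd2-/- than in naive WT mice (difference -0.55 (95% CI -0.82 to -0.28)). With DSS 3 of the 22 were thus higher in WT, against 6.26% of all genes, and 2 in Mbd2-/- mice, against 5.17%, and between naive genotypes 1 was lower, against 3.03%. With both genotypes averaged, 3 of the 22 were higher with DSS, against 11.4% of all genes, and 0 lower, against 9.93%. Factors that switch on replication and mitosis genes did not pass with DSS in WT or Mbd2-/- mice: E2f1 differed by 0.12 and 0.21, Mybl2 by 0.54 and 0.08, Foxm1 by 0.32 and 0.35, and Myc by 0.41 and -0.12. Over the 22 regulators the 95% intervals reached a median of 0.34 to either side, so changes of these factors are not excluded. Cdk1, the mitotic kinase and one of the other mitosis genes above, differed by 0.08 and 0.11. In naive Mbd2-/- against naive WT mice Myc differed by 0.59 (95% CI 0.24 to 0.95, adjusted p = 0.0515), just short of the threshold.

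Of 21 inhibitors of cyclin-dependent kinases and p53 targets, 1 was higher and 2 were lower with DSS in each genotype, against 6.26% and 4.56% of all genes in WT and 5.17% and 4.67% in Mbd2-/- mice. With both genotypes averaged, 3 of 21 were higher and 6 lower, against 11.4% and 9.93% of all genes. Cdkn1c (p57) rose by 0.60 (95% CI 0.25 to 0.95) in WT mice and Cdkn1b (p27) by 0.56 (95% CI 0.28 to 0.84) in Mbd2-/- mice. Trp53inp1, a p53 target that slows division, fell in both genotypes, with changes of -0.89 (95% CI -1.33 to -0.45) in WT and -0.98 (95% CI -1.43 to -0.54) in Mbd2-/- mice. Btg2, an antiproliferative p53 target, fell in WT mice (change -0.81 (95% CI -1.21 to -0.41)) and the kinase Plk2 in Mbd2-/- mice (change -0.52 (95% CI -0.82 to -0.21)). Btg2 was also lower in naive Mbd2-/- than in naive WT mice (difference -0.99 (95% CI -1.39 to -0.59)), again against the naive WT samples. Gadd45a, a growth arrest gene, was lower in Mbd2-/- than in WT mice on DSS. It read 11.77, 11.95, 11.42 and 11.38 in WT and 10.69, 10.95, 10.90 and 10.77 in Mbd2-/- samples, with no overlap, and the difference was -0.80 (95% CI -1.17 to -0.43, adjusted p = 0.0139). Cdkn1a (p21), the best known inhibitor of the p53 response, differed with DSS by 0.22 (95% CI -0.20 to 0.64, adjusted p = 0.523) in WT and 0.55 (95% CI 0.13 to 0.98, adjusted p = 0.0932) in Mbd2-/- mice, neither of which passed.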

How the data were processed

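RNA of sorted colon epithelial cells was read on 18 Illumina MouseWG-6 arrays. In the deposited table each probe has the mean intensity of its beads on a linear scale, and per the file headers the scanner software applied no normalization. Each deposited detection p-value sets a probe against the negative controls of its array. The submitters' processing notes name lumi and limma, with no version; their normalized values were not used here. The table holds 45281 probes, 974 control probes (936 negative) and 72 further per-sample columns that were not used.

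Signals were background-corrected on the negative controls, quantile-normalized and log2-transformed with neqc (limma 3.58.1, R 4.3.3, offset 16). Arrays 4R and 5R carry the number of arrays 4 and 5 with a letter that the labels do not explain. The SD of their log2 difference was 0.194 and 0.236, below that of any other array pair of their groups (0.334 to 0.482 and 0.287 to 0.419), and each was averaged with its namesake, which gave 16 samples. The study describes 5 biological replicates per genotype on DSS, the number of arrays with 4R and 5R counted, so that averaging them may understate n; all 18 arrays as separate samples were an alternative. Of all probes, 21938 passed a filter that asked for a detection p-value under 0.05 on 4 or more arrays, which leaves out transcripts near background in every group. A gene was read at its brightest tested probe. A single limma model of group means (12 residual and 4.71 prior degrees of freedom) gave the contrasts; all p-values of genes are from limma, two-sided, adjusted with Benjamini-Hochberg over all tested probes of a contrast. The model was tested on simulated data. Of the tested probes, 16399 were named through a RefSeq table (GRCm38.p6) by Entrez identifier and the rest by the file's symbol; the division genes were matched by the file's symbol. The number of arrays limits the precision.

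The 45 genes and the other lists were chosen with earlier results of these data known. Values in every sample are given for the 4 replication and 4 mitosis genes with the largest absolute moderated statistic in each comparison of 2 groups, for Ccnd1 and Gadd45a in addition, chosen after their values were seen, and otherwise folds, ranges and counts; from the other lists, genes at an adjusted p under 0.05 are named, and E2f1, Mybl2, Foxm1, Myc, Ccnd1, Cdkn1a and Cdk1 in any case. Alternatives changed the background correction, the scaling, the filter, the samples in the fit, the repeat arrays, array weights, the variance model and the probe, and left out each sample in turn. Promoters were searched for exact letters in 1 entry per symbol.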

Additional observations from a re-analysis of the deposited data

Results flagged for a closer look

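A sample was flagged where, within its group of 4, its gap to the nearest other sample, as a part of the group's range, was above Dixon's 95% critical value, which chance gives in about 1 of 20 groups; here it was 9 of 176. In naive Mbd2-/- CECs, Pcna was low in sample 15 (7.79, others 8.21 to 8.28; gap 0.869 of the range) and Rrm1 in sample 14 (8.93, others 9.49 to 9.55; 0.896). In DSS-treated WT CECs, Tk1 was low in sample 2 (9.58, others 10.05 to 10.11; 0.892), Birc5 was low in the same sample (9.62, others 10.35 to 10.45; 0.878) and Cdc6 was high in sample 4 (8.27, others 7.62 to 7.69; 0.888). In naive WT CECs, Ccna2 was high in sample 9 (5.43, others 5.04 to 5.09; 0.877), Bub1b in sample 12 (9.63, others 9.48; 0.979) and Nusap1 in sample 12 (9.58, others 9.27 to 9.32; 0.845). In DSS-treated Mbd2-/- CECs, Ube2c was low in sample 5 (5.79, others 6.50 to 6.57; 0.918). The means of the replication and mitosis genes were not flagged in any group.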

How the results depend on the processing

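No paired analysis was possible because the groups share no replicate numbers. Over the alternatives other than leaving out a sample, 103 of 116 counts of passing genes and 114 of 116 list medians kept within the limits used (1.5 times the count, 1 SD of the list mean between samples), and of the changes of single genes 270 kept their direction and side of the threshold, 10 newly passed and 6 no longer passed. Scaling to a common median gave 5 mitosis genes with DSS in WT mice (Aurka, Cdca8, Cenpa, Mad2l1 and Top2a) and 0 replication genes between naive genotypes, medians with DSS in WT of 0.35 for replication and 0.51 for mitosis genes, and, averaged over genotypes, 5 replication and 12 mitosis genes (all genes higher: 16.7% in WT, 27% averaged). Between naive genotypes 1.24% of all genes were then higher and 3.03% lower. That scaling moved the median of all genes with DSS by 0.17 (WT), 0.14 (Mbd2-/-) and 0.16 (averaged) and on DSS between genotypes by -0.096, and the share of passing genes that were higher with DSS from 57.9% to 89.6% in WT and from 52.5% to 82.5% in Mbd2-/- mice, and between genotypes from 37.1% to 20.8% with and from 44.2% to 29% without DSS. With no filter, 1 replication gene passed with DSS in WT (all genes: 4.92% higher, 3.43% lower) and 0 between naive genotypes (1.95% and 2.11%). With only the groups compared in the fit, 2 mitosis genes passed with DSS in WT (all genes: 5.14% higher, 3.33% lower). In these fits 0 mitosis genes passed with DSS in Mbd2-/- mice (4.04% and 3.45%) and 0 replication genes between naive genotypes (0.844% and 0.635%). Array weights gave 6 mitosis genes with DSS in Mbd2-/- mice (7.98% of all genes were higher) and 10 averaged over genotypes (13.9%); the variance trend, and the mean over probes, gave 5 each averaged over genotypes. The cause was not tested. Leaving out 1 sample gave 0 to 2 replication and 0 to 1 mitosis genes with DSS in WT, 0 to 3 mitosis genes with DSS in Mbd2-/-, 0 to 1 replication genes between naive genotypes, and 1 to 2 replication and 2 to 7 mitosis genes averaged over genotypes (7 without sample 15, 6 without sample 2). In these fits 3.48% to 7.09% of all genes were higher and 2.42% to 5.67% lower with DSS in WT. With DSS in Mbd2-/- mice 2.9% to 6.03% were higher, and averaged over genotypes 8.99% to 11.6%. Between naive genotypes 1.02% to 3.69% of all genes were lower. The difference of Rrm2 between genotypes on DSS ran from -0.0038 without sample 1 to 0.38 without sample 5. No setting passed any of these genes between genotypes on DSS or in the interaction.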
